A study of Rattus norvegicus with 6 samples.

Results

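The 10 gut hormone genes Gcg, Cck, Sct, Pyy, Nts, Tac1, Tph1, Ghrl, Gip and Sst were read in nuclei of the rat ileum, 24 h after severe acute pancreatitis (SAP) or sham surgery (CON). They are 10 of the 28282 gene symbols in the count tables, and all 10 were present. They were read in marker-positive nuclei, defined as nuclei with UMIs (unique molecular identifiers, 1 per captured transcript) of at least 3 of the 8 neuroendocrine markers Chga, Chgb, Cpe, Neurod1, Pcsk1, Scg2, Scg3 and Insm1, and separately in all other nuclei that passed quality control. None of the 10 genes is among the 8 markers, so the choice of nuclei did not use their values. Of 40970 passing nuclei, 268 (0.654%) were marker-positive.

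Enteroendocrine cells are rare epithelial cells that release peptide hormones or serotonin into the blood and onto nearby nerves when nutrients, bile acids or microbial products reach the gut wall. In the ileum, L cells make proglucagon peptides such as GLP-1 together with peptide YY, N cells make neurotensin, and enterochromaffin cells make serotonin and, in many cases, substance P. Peptides of this kind slow gastric emptying, stimulate pancreatic secretion, and act on motility and on epithelial growth.

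Single-nucleus RNA sequencing was performed on 6 libraries, 1 per rat, from male wild-type Sprague-Dawley rats. The rats were obtained at an age of 6 weeks and acclimatized for 7 days before surgery. Pancreatitis was induced in the 3 SAP rats by retrograde infusion of 3% sodium taurocholate into the pancreatic duct (0.1 mL per 100 g), with 3% pentobarbital sodium (40 mg/kg) as the anaesthetic. The 3 CON rats had the same anaesthesia and a sham laparotomy with no infusion. After surgery, all rats had water but no food, so both groups were fasted when the ileum was taken. A single time point was measured. Replicates are separate rats, and the labels set no batches apart.

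Passing libraries held 3189 to 9246 nuclei and 5549260 to 28771508 UMIs, with medians of 1516 to 1889.5 UMIs per nucleus. The median mitochondrial share was 0.700%, 0.125% and 0.218% in CON 1, 2 and 3 and 1.84%, 1.29% and 0.387% in SAP 1, 2 and 3, and its part in the group differences below was not tested beyond the limit of 1% given there. The library SAP 1 was the shallowest and gave only 13 marker-positive nuclei with 27229 UMIs, against 40 to 68 in the other 5 libraries. In CON 1, a single marker-positive nucleus held 94771 of that library's 453507 marker-positive UMIs. No pair of nuclei from different libraries had identical counts. Intervals and detection limits below cover counting error only.

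The marker-positive set was checked against markers of other cell types. Of its 268 nuclei, 258 (96.3%) held UMIs of 2 or more of 9 epithelial markers such as Epcam and Cdh1, and 23 (8.58%) held UMIs of 2 or more of 10 neuron markers such as Elavl4. The neuron-marked nuclei were deeper, with a median of 5649 UMIs against 2207, and 22 of the 23 also held 2 or more epithelial markers. Nts was at 0 UMIs in them, and Tph1 was at 9.64 CPM (UMIs of the gene per 1000000 UMIs) against 230.2 CPM in the rest. Tac1, which enteric neurons also express, was at 313 CPM in the neuron-marked nuclei and 384 CPM in the rest, and Sst was at 139.8 and 82.8 CPM. Other lists met the same rule of 2 markers, led by goblet in 258 nuclei (96.3%) and Paneth in 193 (72.0%). Enterocyte markers did so in 171 nuclei (63.8%), crypt in 117 (43.7%) and smooth muscle in 85 (31.7%). T cell markers did so in 79 (29.5%) and endothelial in 32 (11.9%). The epithelial markers were at 4961 CPM in marker-positive and 5385 CPM in other nuclei, so their share does not set these nuclei apart. Goblet markers were at 8201 and 7025 CPM, Paneth at 6906 and 19183, enterocyte at 1819 and 2625, and crypt at 867 and 1164 CPM. Smooth muscle markers were at 985 and 966 CPM, and neuron markers at 484 and 21.4 CPM. Inside the marker-positive nuclei, summed markers of other epithelial types differed in their group means, with overlap between libraries. The part of these markers in the hormone differences was not tested. The 10 goblet markers ranged from 3957 to 13184 CPM in CON and from 2644 to 5441 CPM in SAP, the 10 crypt markers from 823 to 1087 and from 257 to 836 CPM, and the 9 enterocyte markers from 901 to 1958 and from 1109 to 3245 CPM. The 7 Paneth markers ranged from 1273 to 12655 CPM in CON and from 828 to 21191 CPM in SAP. For the 10 tuft markers the ranges were 118 to 350 and 294 to 729 CPM. The groups overlapped for each of these lists. Only 2 marker-positive nuclei (0.746%) held 2 or more mast cell markers, which bears on Tph1, a gene that mast cells also use. Without the neuron-marked nuclei, the 8 SAP against CON fold changes given below kept their sign and their side of the threshold.

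Marker-positive nuclei made up 0.735%, 0.719% and 0.666% of the nuclei in CON 1, 2 and 3, and 0.408%, 0.771% and 0.507% in SAP 1, 2 and 3. The groups overlapped, since SAP 2 had the highest share of all. The means were 0.707% ± 0.0365 in CON and 0.562% ± 0.188 in SAP (SD, n = 3 each, exact two-sided permutation p = 0.4), where 3 against 3 cannot give a p below 0.1. When the markers were read after each nucleus had been thinned to 1200 UMIs, 148 nuclei remained and the mean shares were 0.437% and 0.291%. The libraries stood at 0.411%, 0.543% and 0.357% in CON and at 0.345%, 0.352% and 0.177% in SAP (exact permutation p = 0.1). They did not overlap, but CON 3 (30 of 8414 nuclei) and SAP 2 (21 of 5968) were nearly level, and the thinning was drawn 1 time. With at most 1% mitochondrial UMIs the mean of SAP minus that of CON was 0.0531 percentage points, but that limit left SAP 1 with 3 marker-positive nuclei of 384 and SAP 2 with 19 of 1908. At the limit of the rule, 156 nuclei held exactly 3 markers and 493 held 2. A UMI of at least 1 gut hormone gene was found in 84.0% of the former and 51.9% of the latter, and in 17.3% of the nuclei without any of the 8 markers.

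The 8 markers themselves did not separate the groups in marker-positive nuclei, and are given as a description because they chose the nuclei. Chga, a granule protein, stood at a mean of 946 CPM in CON and 1273 CPM in SAP, Chgb at 1747 and 1731 CPM, and Cpe, which trims prohormones, at 471 and 405 CPM. Scg2 stood at 359.8 and 497 CPM, Neurod1 at 127 and 96.3 CPM, Pcsk1, the prohormone convertase of these cells, at 60.8 and 34.8 CPM, Scg3 at 51.3 and 59.5 CPM, and Insm1 at 40.4 and 41.6 CPM. The libraries of both groups overlapped for each of the 8 markers.

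Gut hormone genes were concentrated in the marker-positive nuclei. In edgeR's quasi-likelihood test on sums per library, with the rat as a block, 8 of the 9 genes that could be tested were higher in marker-positive than in other nuclei. Of all 15970 genes tested, 821 (5.14%) were higher by the same rule, an adjusted p under 0.05 and a log2 difference of at least 0.5, while 531 were lower. Scaling by library totals in place of TMM gave 1054 higher and 118 lower and moved the median of all genes from −0.16 to 0.07, and DESeq2 gave 812 and 114. The log2 differences of the 9 gut hormone genes were above 0 under each of these scalings. The largest difference of the 9 was that of Tph1, the rate-limiting enzyme of serotonin synthesis outside the brain, with a log2 value of 6.11 (SE 0.26, edgeR, adjusted p = 5.85e-34). It was 5.10 (SE 0.37) for Sst, which encodes the inhibitory hormone somatostatin, 4.34 (SE 0.51) for Gcg, and 3.97 (SE 0.18) for Tac1, the precursor of substance P. Nts reached 3.23 (SE 0.95) and did not pass (edgeR, adjusted p = 0.125, and 0.119 with library totals), though DESeq2 called it. Pyy passed at an adjusted p of 0.0306 in edgeR, and it no longer passed without any 1 of CON 1, CON 2, CON 3, SAP 2 or SAP 3, where its adjusted p in edgeR lay between 0.0515 and 0.138. Ghrl, the ghrelin gene, had no UMI in any of the 268 marker-positive nuclei, which allows a share of up to 1.12%.

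Despite this concentration, most gut hormone UMIs lay outside the marker-positive set. The marker-positive nuclei held 49.5% of all Tph1 UMIs, 37.4% of Sst, 33.9% of Pyy, 31.5% of Gcg, 23.6% of Nts, 19.4% of Cck, 16.5% of Tac1, 14.1% of Sct and 7.62% of Gip. Among other nuclei with a UMI of a given gene, 78.6% to 89.9% held exactly 1. A smaller number of other nuclei were rich in a hormone, with 5 or more UMIs of Gcg in 69, of Sct in 79, of Nts in 71 and of Pyy in 36. Nuclei outside the marker rule thus included hormone-rich nuclei as well as nuclei with a single UMI.

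As a background level, 441 nuclei classed by T cell markers, which should not express these genes, were read in the same way. With a median of 1872 UMIs they gave a UMI of Sct in 2.49%, Pyy in 2.27%, Gcg, Nts and Tac1 in 2.04% each, and Tph1 in 0.227%. These shares pool the T cell nuclei of all libraries, so the background was not matched to each library. The T cell UMIs of Sct came from 2 libraries. By group, T cell Tac1 was at 16.2 CPM in CON and 4.32 CPM in SAP, and Sct at 9.03 and 15.1 CPM. Those levels rest on 11 UMIs of Tac1 and 12 of Sct over both groups, too few to compare the groups. Over all other nuclei, with a median of 1759 UMIs, the pooled shares were 2.20% for Gcg and 2.41% for Pyy, both inside the 95% exact (Clopper-Pearson) intervals of the T cell values (0.937% to 3.84% for Gcg and 1.09% to 4.13% for Pyy). The pooled shares of Sct (5.91%) and Tac1 (4.99%) lay above the upper bounds of those intervals, 4.42% and 3.84%, but the libraries differed. In SAP 1, 2 and 3 the shares were 2.96%, 3.33% and 3.79% for Sct and 2.49%, 1.84% and 2.79% for Tac1, all inside the T cell intervals. In CON they were 12.1%, 4.86% and 4.77% for Sct and 8.04%, 8.98% and 3.95% for Tac1, all above them. This depended on the class taken as background. The 618 nuclei classed by smooth muscle markers gave Sct in 5.02% (95% exact interval 3.43% to 7.04%) and Tac1 in 3.07% (1.86% to 4.76%). The pooled Sct share, Sct in CON 2 and CON 3, and Tac1 in CON 3 lay inside these intervals. The pooled Tac1 share and the remaining CON shares lay above them. Sct in SAP 1 and SAP 2 and Tac1 in SAP 2 lay below them, and the remaining SAP shares lay inside. By group, smooth muscle Sct was at 24.5 CPM in CON and 8.79 CPM in SAP, and Tac1 at 13.1 and 8.79 CPM. Those levels rest on 32 UMIs of Sct and 19 of Tac1 over both groups. Whether the background differed between the groups was not tested.

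The hormones of L and N cells were first compared within marker-positive nuclei. Gcg, which encodes proglucagon, was at 1244, 959.7 and 72.5 CPM in CON 1, 2 and 3 and at 881, 102 and 277 CPM in SAP 1, 2 and 3. Pyy, the gene of peptide YY, was at 1098, 1087 and 72.5 CPM in CON and at 0, 79.6 and 569.9 CPM in SAP. For both genes CON 1 and CON 2 were high, CON 3 was at or near the bottom, and the groups overlapped. The Gcg level of SAP 1 rested on a single nucleus with 95.8% of its 24 UMIs.

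Nts, the gene of neurotensin, was at 1363, 1116 and 102 CPM in CON and at 0, 269.7 and 83.6 CPM in SAP. Cck, which encodes the satiety and gallbladder hormone cholecystokinin, was at 128, 215 and 4.27 CPM in CON and at 0, 13.3 and 53.2 CPM in SAP. Sct, the gene of secretin, which drives bicarbonate secretion, was at 798, 1058 and 93.9 CPM in CON and at 184, 137 and 251 CPM in SAP. In these 3 genes too CON 3 lay among or below the SAP libraries, while CON 1 and CON 2 lay above all of them. The zeros of SAP 1 allow up to 110.2 CPM, the level of 3 UMIs there, which is above the Pyy, Nts and Cck levels of CON 3.

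Tac1 and Tph1, the genes of enterochromaffin cells, behaved differently across the libraries. Tac1 was at 319.7, 1058 and 422 CPM in CON and at 698, 181 and 285 CPM in SAP. Tph1 was at 57.3, 637 and 320.0 CPM in CON and at 551, 190.1 and 118 CPM in SAP. For both genes CON 2 alone stood above SAP 1, and CON 3 came next. Of all gut hormone UMIs in marker-positive nuclei, Tac1 and Tph1 made up 35.7% and 27.1% in CON 3, against 6.17% and 1.11% in CON 1, where Nts (26.3%) and Gcg (24.0%) led.

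Sst and Gip were carried by few nuclei. Sst was at 143, 166 and 59.7 CPM in CON and at 184, 39.8 and 38.0 CPM in SAP, with all of the UMIs in CON 2 and SAP 1 coming from 1 nucleus each. Gip, the gene of an incretin made mainly in the upper gut, had 31 UMIs in 7 marker-positive nuclei. Its level was 28.7, 29.4 and 34.1 CPM in CON against 0, 26.5 and 3.80 CPM in SAP. The 0 of SAP 1 allows up to 110.2 CPM, above all 3 CON levels, so whether the groups overlap cannot be read from these values. Gip had too few UMIs for the fit over all genes, and 1 nucleus held 83.3% to 100% of them in each of the 5 libraries that had any.

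**Figure D1:**
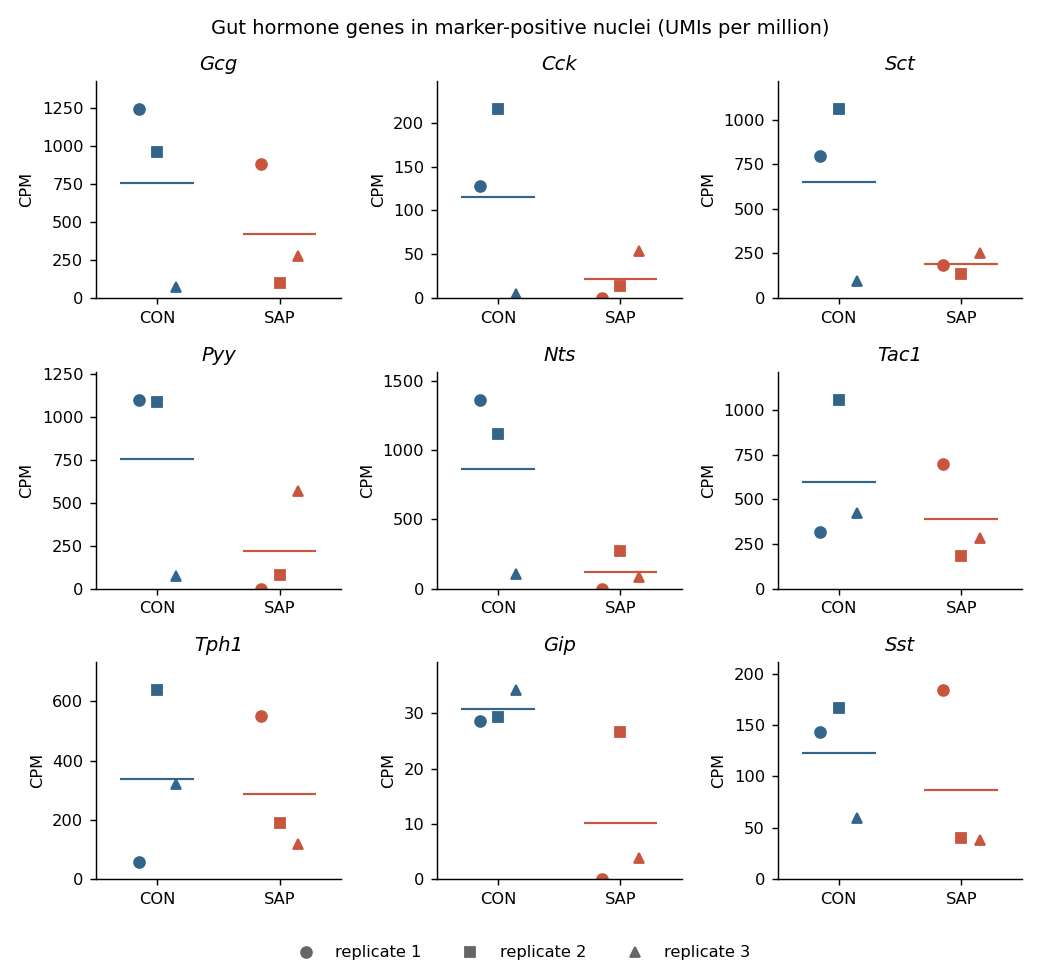
CPM (vertical axes, linear, from 0) of 9 gut hormone genes summed over the marker-positive nuclei of each library. Each point is 1 rat, its shape gives the replicate number, and horizontal lines are group means. For Gcg, Cck, Sct, Pyy and Nts the CON replicate 3 library lies among or below the SAP libraries. The 0 of SAP 1 for Cck, Pyy, Nts and Gip allows up to 110.2 CPM. Ghrl is left out because it had 0 UMIs in all 6 libraries.

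The test over all genes asked whether these levels differed between SAP and CON beyond the spread between rats. In marker-positive nuclei, edgeR's quasi-likelihood test with Benjamini-Hochberg adjustment called 0 of 5681 genes (0%), and 199 genes had an unadjusted p under 0.05. Of the 10 gut hormone genes, 8 passed the filter on low counts and none was called. All 8 log2 fold changes of SAP over CON were below 0, with a median over all genes tested of −0.01. The most negative was that of Nts, at −2.57 (SE 0.88), and Nts and Sct were the only ones of the 8 with an unadjusted p under 0.05 (edgeR, adjusted p = 1.00 for each of the 8). Sct was at −1.76 (SE 0.68), Cck at −1.80 (SE 0.95) and Pyy at −1.58 (SE 0.95). Sst was at −1.20 (SE 0.60), Gcg at −1.16 (SE 0.91), Tac1 at −0.78 (SE 0.54) and Tph1 at −0.45 (SE 0.74). Several of these genes are carried by the same nuclei, so their common sign is not a set of 8 separate observations.

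These values depended on single libraries. Without CON 1, the Nts value was −1.93 and that of Gcg −0.44, and no gut hormone gene had an unadjusted p under 0.05. The same count of 0 was found without CON 2, when Tph1 was at 0.27. Without CON 3, 6 of the 8 genes had an unadjusted p under 0.05, with Nts at −3.13 and Gcg at −1.70, and none was called. Of all 6270 genes tested in that fit, 267 had an unadjusted p under 0.05. DESeq2 called 3 genes in the fit of all 6 libraries, none of them a gut hormone gene. With every gene of at least 1 UMI kept in the fit, 30 genes were called and Sct was among them, at −1.83 (edgeR, adjusted p = 0.0248).

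The share of marker-positive nuclei with a UMI of each gene was compared as a second measure. For Sct the CON libraries stood at 48.5%, 44.4% and 17.9% and the SAP libraries at 15.4%, 34.8% and 17.5%. For Tph1 the CON libraries stood at 14.7%, 37.8% and 42.9% and the SAP libraries at 46.2%, 43.5% and 27.5%. The difference of the means, SAP minus CON, was −14.4 percentage points for Sct, −13.4 for Cck, −13.0 for Pyy, −11.9 for Nts and 7.26 for Tph1. No gene separated the groups, and the lowest exact permutation p over the 10 genes was 0.2 (Benjamini-Hochberg adjusted 0.6). With nuclei thinned to 1200 UMIs the differences were −11.0 percentage points for Sct and 1.60 for Tph1.

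Gut hormone genes were found together in recurring combinations. Of the 268 marker-positive nuclei, 233 held a UMI of at least 1 of them, and 2 genes per nucleus was the most common number, in 96 nuclei. Of the 88 nuclei with Tph1, 70 (79.5%) also held Tac1, against 36.1% of the nuclei without Tph1, and this held in all 6 libraries. Of the 46 nuclei with Nts, 42 (91.3%) also held Sct, against 20.7% of those without Nts, in each of the 5 libraries with Nts. Gcg, Pyy and Cck formed another combination, which overlapped with that of Nts and Sct. Of the 58 nuclei with Gcg, 60.3% held Pyy and 56.9% held Cck, against 10.0% and 6.19% of the nuclei without Gcg, each higher in 5 of 6 libraries. Of the 56 nuclei with Pyy, 73.2% held Sct and 53.6% held Nts, against 22.2% and 7.55% of those without Pyy. Of the 46 nuclei with Cck, 65.2% held Sct, against 26.1% of those without Cck. Each of these was higher in all 5 libraries with the gene. Tph1 was nearly separate from Gcg, Pyy and Cck, with Gcg in 2 of the 88 Tph1 nuclei, Pyy in 1 and Cck in 0.

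These are descriptions of nuclei within 6 rats and carry no test, since nuclei of 1 rat are not replicates. Both genes of a pair are also more easily seen in a deeper nucleus. The nuclei with Tph1 were shallower than those without, at medians of 1917 and 2839 UMIs, and those with Tac1 were shallower as well, at 2179 and 2591 UMIs.

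**Figure D2:**
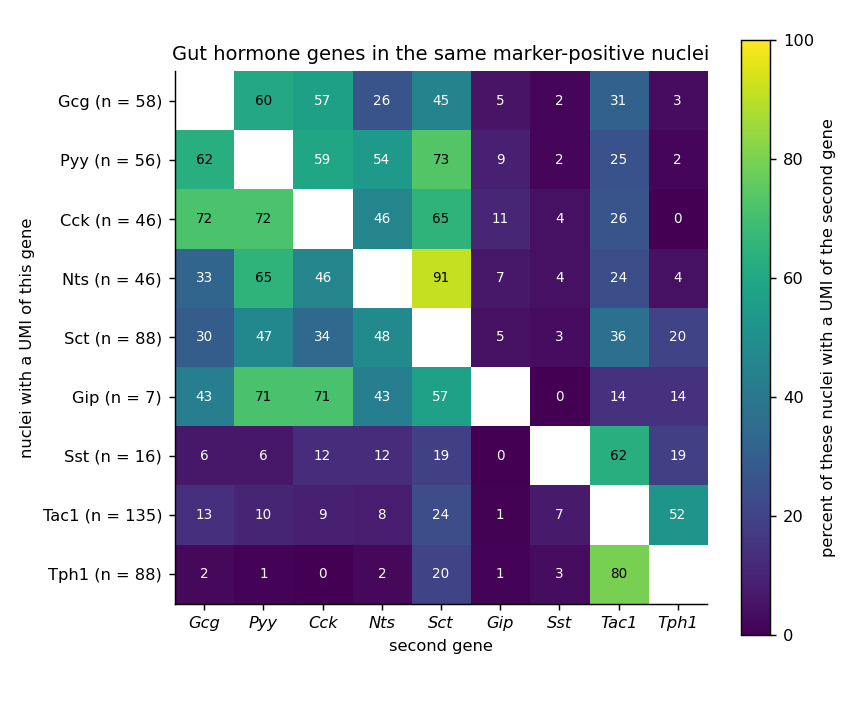
Percent of marker-positive nuclei with a UMI of the row gene (n in parentheses, over all 6 libraries) that also held a UMI of the column gene, on a color scale from 0 to 100. Gcg, Pyy and Cck were often found together, 91.3% of Nts nuclei held Sct, and 79.5% of Tph1 nuclei held Tac1. Of Pyy nuclei 73.2% held Sct and 53.6% held Nts, while 25.9% of Gcg nuclei held Nts. Values are rounded to whole percent in the cells.

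Promoter sequences of the genes that were found together are shown for reference. RefSeq promoters of the rat assembly GRCr8 were available for 8 of the 10 genes, matched by symbol, and the 250 bases before the gene start are printed 5′ to 3′ on the gene's strand. The count tables were made on another assembly (mRatBN7.2 in the submitters' processing notes), and no count was read by position. Capitals mark CAGATG, an E-box of the kind that Neurod1 binds with its partners, and TATAAA, the TATA box, each searched on both strands (as CATCTG and TTTATA on the other). The pairs are Gcg (chr3:67531534-67531783, minus strand) with Pyy (chr10:87562471-87562720, minus strand), and Tph1 (chr1:106314629-106314878, minus strand) with Tac1 (chr4:36645333-36645582, plus strand).
Gcg: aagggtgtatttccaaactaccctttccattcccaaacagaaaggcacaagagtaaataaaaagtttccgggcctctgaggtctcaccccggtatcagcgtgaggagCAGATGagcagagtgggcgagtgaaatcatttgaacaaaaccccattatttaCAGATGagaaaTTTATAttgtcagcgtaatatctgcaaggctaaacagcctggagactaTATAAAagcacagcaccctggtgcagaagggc
Pyy: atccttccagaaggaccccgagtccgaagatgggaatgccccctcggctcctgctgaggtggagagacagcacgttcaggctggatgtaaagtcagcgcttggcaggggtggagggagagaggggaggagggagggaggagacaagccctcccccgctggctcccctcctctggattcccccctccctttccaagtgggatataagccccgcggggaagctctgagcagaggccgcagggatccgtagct
Tph1: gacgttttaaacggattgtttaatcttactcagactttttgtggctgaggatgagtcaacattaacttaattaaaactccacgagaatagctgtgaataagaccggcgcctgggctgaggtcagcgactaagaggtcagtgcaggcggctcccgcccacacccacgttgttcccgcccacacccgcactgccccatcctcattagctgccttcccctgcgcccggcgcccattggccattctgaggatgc
Tac1: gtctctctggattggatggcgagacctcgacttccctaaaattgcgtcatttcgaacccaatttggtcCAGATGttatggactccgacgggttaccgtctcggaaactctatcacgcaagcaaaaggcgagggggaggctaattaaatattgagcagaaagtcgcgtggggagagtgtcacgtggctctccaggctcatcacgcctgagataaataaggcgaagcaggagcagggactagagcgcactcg
Gcg held CAGATG at 2 places, starting 143 and 91 bases before the gene start, and TATAAA 32 bases before it, with TTTATA 80 bases before it, while Tac1 held CAGATG at 1 place, 182 bases before the start. Neither motif was found in the printed Pyy or Tph1 sequence. Of the 8 promoters read, 2 held CAGATG and 1 held TATAAA, while 14.0% and 12.9% of 33469 rat promoters of the same length did. The matches are letters only and were not tested for binding.

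For each gut hormone gene with a UMI in at least 60 marker-positive nuclei, the genes most enriched in the same nuclei were listed, requiring at least 30 UMIs and a higher level in all 6 libraries. Beside Tph1 these were Col25a1 at 11.1 times the CPM of nuclei without Tph1, Lmx1a, a transcription factor of enterochromaffin cells, at 8.84 times, Slc18a1, the vesicular monoamine transporter that loads serotonin into granules, at 8.53 times, Slc38a11 at 8.40 times and Glis3 at 6.77 times. Beside Tac1 they were Trpc7, a cation channel, at 9.23 times, Dgki, a diacylglycerol kinase, at 6.74 times, Cacna1e, a voltage-gated calcium channel subunit, at 4.03 times, and Hspe1 and Slc5a9 at 3.96 times each. Beside Sct the ratios were lower, from 2.40 for Id1 through Pgap4, Bcas1 and Slc13a1 to 2.04 for Cwh43. Bcas1 is also among the goblet markers, and in SAP 1 only 2 marker-positive nuclei held Sct. The CON 1 nucleus with 94771 UMIs held both Sct and Tac1 and is part of both sums. All 5 companions of Tph1 were higher beside it in each of the 6 libraries, as the rule required.

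Other genes of the pathway, from lists of genes with a known role, were read in the same fit of marker-positive nuclei. Of 24 transcription factors of the enteroendocrine lineage, 9 could be tested, 0 had a log2 fold change above 0 and 9 had one below 0, with a median of −0.59, against −0.01 for all genes tested. None was called, and the lowest p values were those of Pax6 at −1.30 (SE 0.69) and Etv1 at −0.89 (SE 0.65). Pax6, which is needed for Gcg-expressing cells, was at 46.3, 333 and 72.5 CPM in CON and at 36.7, 57.5 and 49.4 CPM in SAP, so that CON 2 alone stood high. Of 22 genes of prohormone processing and granules, 16 could be tested, with 3 above and 13 below 0 and a median of −0.49. None was called, and the lowest p values were those of Kcnb2, a potassium channel, at −0.89 (SE 0.48) and Syt7, a calcium sensor of exocytosis, at −0.86 (SE 0.49). CON 2 was the highest library for Etv1 (509 CPM), Kcnb2 (2164 CPM) and Syt7 (588 CPM) as well. Etv1 in CON 3 (51.2 CPM), Kcnb2 in CON 1 (591 CPM) and Syt7 in CON 3 (188 CPM) lay among or below the SAP libraries. Genes of both lists were read in the same nuclei, so a common sign is not a set of separate observations.

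Serotonin handling and sensing genes showed no common direction. Of 11 serotonin genes, 4 could be tested, 2 in each direction, with Gch1, which makes the cofactor of Tph1, at −0.20 (SE 0.49) and Aldh2 at 0.19 (SE 0.55). Of 24 genes that sense nutrients, bile acids or microbes, 22 were in the tables and 6 could be tested, 4 above and 2 below 0. Abcc8, the sulfonylurea receptor subunit of the ATP-sensitive potassium channel, was at 70.6, 127 and 59.7 CPM in CON and at 36.7, 13.3 and 45.6 CPM in SAP, with a log2 fold change of −1.40 (SE 0.54, edgeR, adjusted p = 1.00). The level of SAP 1 is that of 1 UMI, so whether the groups overlap cannot be read from it. Slc15a1, the peptide transporter, was at 0.68 (SE 0.43).

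Among 22 further gut and neuroendocrine peptides only Nmu and Guca2a could be tested. Nmu, which encodes neuromedin U, was at 143, 392 and 81.1 CPM in CON and at 0, 13.3 and 7.60 CPM in SAP. SAP 2 and SAP 3 were below every CON library, and the log2 fold change was −4.23 (SE 0.75), behind only Ntrk3 and St8sia6 in p, but it did not pass (edgeR, adjusted p = 0.198). Nmu was called by DESeq2, without the filter on low counts, with at most 1% mitochondrial UMIs and without CON 3. In SAP 1 its 0 allows up to 110.2 CPM, above the level of CON 3. Guca2a, the guanylin gene, was at −1.004 (SE 0.59). Ntrk3 was at −3.88 (SE 0.61) and St8sia6 at −4.22 (SE 0.71), both with an adjusted p of 0.159 in edgeR. The lowest p values above 0 were those of Apoc2 at 2.08 (SE 0.51), Itln1 at 3.91 (SE 0.97) and Abhd16a at 1.59 (SE 0.42), each with an adjusted p of 0.891 in edgeR. Itln1 is a product of goblet and Paneth cells and was among the Paneth markers, and it stood at 3599 and 1892 CPM in SAP 1 and SAP 2 against 103 CPM in SAP 3. Whether RNA of other cells took part in the marker-positive sums was not tested.

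Outside the marker-positive nuclei, Sct, Tac1 and Ghrl separated the groups in CPM. Sct was at 70.4, 37.5 and 25.7 CPM in CON and at 19.7, 14.6 and 19.7 CPM in SAP. Tac1 was at 31.8, 58.8 and 20.8 CPM in CON and at 15.6, 8.32 and 15.1 CPM in SAP. Ghrl, which is mainly a stomach hormone gene, was near the floor throughout, at 0.742, 0.796 and 1.18 CPM in CON and at 0.362, 0.262 and 0.522 CPM in SAP, from 69 UMIs in 44 nuclei. Of these UMIs, 21 came from 2 nuclei, both in CON. The share of nuclei with a Ghrl UMI overlapped between the groups, at 0.0965% in CON 2 and 0.102% in SAP 3. In CPM, every SAP library was below every CON library for each of the 3 genes (exact two-sided permutation p = 0.1 each, the smallest this design allows). The share of all genes that separated the groups in this way was not counted. The number of gut hormone genes that did so therefore cannot be set against a background. Fewer cells of a type and less RNA per cell cannot be told apart in these sums.

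The same fit over other nuclei called 0 of 19119 genes (0%) in edgeR, with 1615 at an unadjusted p under 0.05, while DESeq2 called 212. The log2 fold change was −1.57 (SE 0.48, adjusted p = 0.549) for Tac1, −1.46 (SE 0.52, adjusted p = 0.552) for Sct and −1.28 (SE 0.58, adjusted p = 0.600) for Ghrl. DESeq2 called none of the 10 genes, with an adjusted p of 0.0836 for Tac1 and 0.160 for Sct and none given for Ghrl. The Sct value rested in part on CON 1, which held 1995 of the 3630 UMIs, and was −0.64 without that library. The Tac1 value lay between −1.92 and −1.20 over the 6 libraries left out in turn.

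The other 7 genes overlapped between the groups outside the marker-positive set. Nts was at 18.4, 35.7 and 28.8 CPM in CON and at 52.2, 31.6 and 23.7 CPM in SAP, with a log2 fold change of 0.48 (SE 0.44). Gcg was at −0.41 (SE 0.61), Cck at −0.49 (SE 0.64), Pyy at −0.23 (SE 0.42) and Sst at −0.11 (SE 0.63). Gip was at 0.65 (SE 0.76) and Tph1 at 0.63 (SE 0.49). Without SAP 1, in which Gip was at 11.2 CPM, the Gip value was −0.56.

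**Figure D3:**
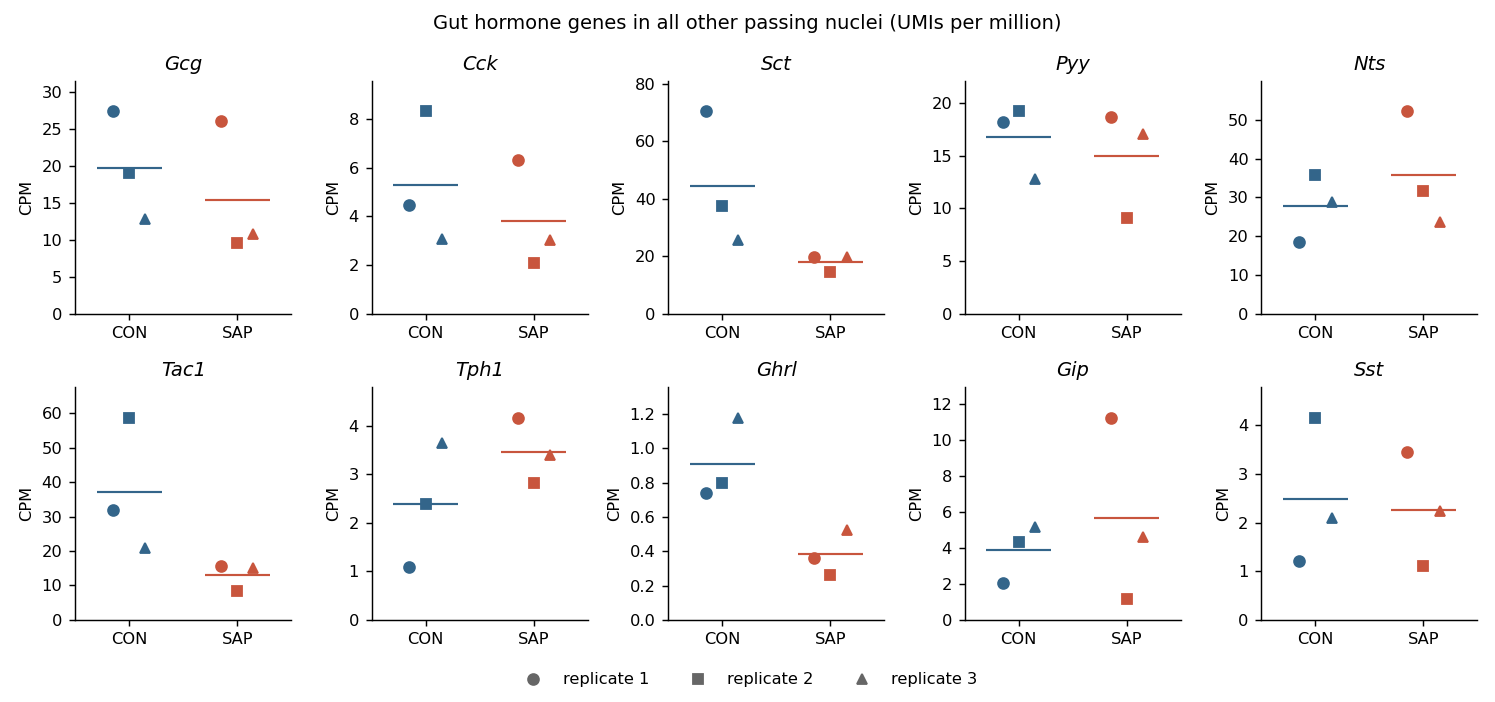
CPM (vertical axes, linear, from 0) of the 10 gut hormone genes summed over all passing nuclei outside the marker-positive set. Each point is 1 rat, its shape gives the replicate number, and horizontal lines are group means. Sct, Tac1 and Ghrl are lower in all 3 SAP libraries than in any CON library, and the other 7 genes overlap. The share of all genes that separate in this way was not counted.

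Over all passing nuclei together, edgeR called 0 of 19187 genes (0%), with 1618 at an unadjusted p under 0.05, and DESeq2 called 215, none of them a gut hormone gene. Sct was at −1.53 (SE 0.53, edgeR, adjusted p = 0.545), Tac1 at −1.46 (SE 0.45, edgeR, adjusted p = 0.545) and Nts at −0.01 (SE 0.46). In this fit the receptors of the hormones had 19 of 33 genes tested, 11 above and 8 below 0, with a median of 0.20 against 0.02 for all genes tested. Sctr, the secretin receptor, was at 1.29 (SE 0.48) and Tacr1, the receptor of substance P, at −0.54 (SE 0.25), and neither was called. All 8 peptide-degrading enzymes were tested, 4 in each direction. Mme (neprilysin) was at 27.7, 22.2 and 69.2 CPM in CON and at 14.2, 8.59 and 17.4 CPM in SAP, without overlap, with a log2 fold change of −1.53 (SE 0.41, edgeR, adjusted p = 0.545). DESeq2 called Mme. Ace was at 1.46 (SE 0.68).

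Whether the SAP effect differed between marker-positive and other nuclei was tested directly, as an interaction with the rat as a block. Of 15970 genes tested, 5 (0.0313%) were called, and 0 of the 9 gut hormone genes in the fit were among them. The difference was −2.53 (SE 1.55) for Nts, whose fold change was below 0 in marker-positive nuclei and above 0 outside, and 0.54 (SE 0.33) for Tac1. For Tph1 it was −0.98 (SE 0.44, edgeR, adjusted p = 0.865). Without CON 3, Nts at −3.27 (edgeR, adjusted p = 3.19e-12) and Pyy at −1.72 (edgeR, adjusted p = 0.0280) were called. That fit called 43 of all 16476 genes tested. Leaving out any other library called neither Nts nor Pyy.

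**Figure D4:**
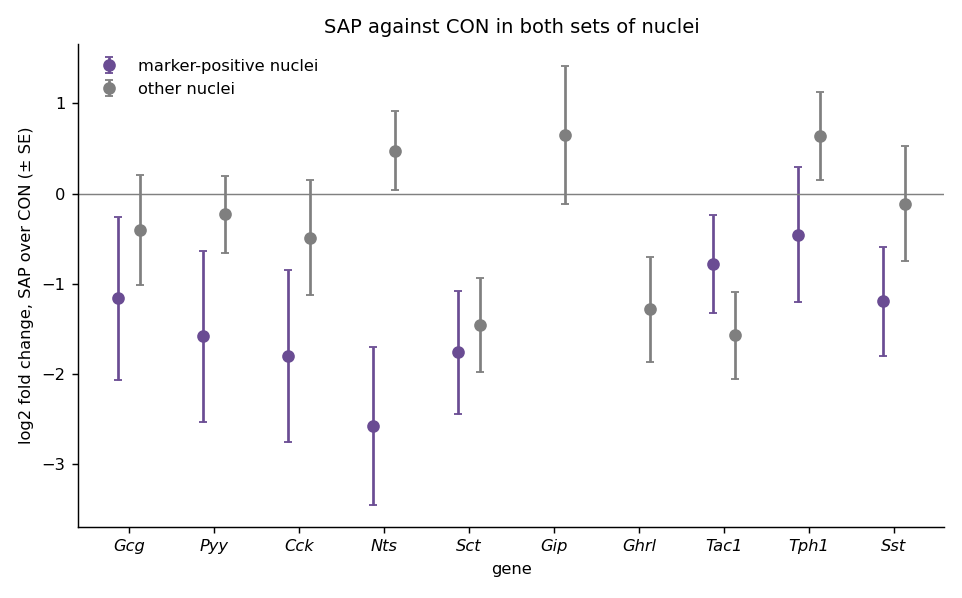
Log2 fold change of SAP over CON (vertical axis) with its standard error from edgeR, for each gut hormone gene in marker-positive nuclei and in other nuclei, 3 rats per group. In marker-positive nuclei all 8 tested genes lie below 0, from −0.45 for Tph1 to −2.57 for Nts, and none passed the test over all genes. Gip and Ghrl were tested in other nuclei only.

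Nuclei rich in a hormone were also counted without the marker rule, a measure chosen after the values above were seen. Nuclei with 5 or more UMIs of at least 1 of the 10 genes numbered 343, of which 110 (32.1%) were marker-positive, 90 held 1 of the 8 markers, 68 held 2 and 75 (21.9%) held none. Per 1000 nuclei there were 14.7, 9.74 and 7.37 in CON and 4.70, 4.36 and 5.45 in SAP. Every CON library was above every SAP library, with means of 10.6 ± 3.75 and 4.84 ± 0.558 (SD, n = 3 each, exact two-sided permutation p = 0.1, the smallest this design allows). With nuclei thinned to 1200 UMIs the groups still did not overlap, at 4.87, 7.35 and 3.57 against 3.14, 1.84 and 3.17. They overlapped at 10 or more UMIs and when nuclei were limited to 1% mitochondrial UMIs (exact permutation p = 0.3 for each). The difference of the means, SAP minus CON, was −5.77 per 1000 nuclei with all 6 libraries and −3.72 without CON 1. Of the single genes, Sct contributed most in CON 1, with 78 of that library's 136 such nuclei.

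Among other nuclei, Tac1 and Sct followed different epithelial markers, which is a description chosen after the values were seen. The share of nuclei with a Tac1 UMI was higher at 3 or more of 10 crypt markers (such as Olfm4 and Top2a) than at 0 in all 6 libraries, also after thinning to 1200 UMIs. With thinning it was 2.40%, 4.10% and 1.81% at 0 crypt markers and 6.04%, 7.77% and 4.41% at 3 or more in CON, and 1.42%, 0.793% and 0.901% against 4.42%, 2.61% and 2.59% in SAP. At 0 markers the groups did not overlap, while at 3 or more SAP 1 was level with CON 3. The share with a Sct UMI was higher at 3 or more of 9 enterocyte markers (such as Apob and Anpep) than at 0 in all 6 libraries. With thinning it was 5.30%, 3.44% and 1.70% at 0 and 14.5%, 3.53% and 3.85% at 3 or more in CON, and 2.39%, 0.714% and 1.69% against 3.41%, 2.08% and 2.70% in SAP, so that the step was largest in CON 1 and CON 2 was nearly level. Some of these shares rest on few nuclei. In SAP 2 the thinned Sct share at 0 enterocyte markers is 1 of 140 nuclei. The thinned Tac1 share of SAP 2 at 3 or more crypt markers is 3 of 115.

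The makeup of the nuclei also differed between the group sums. Nuclei classed by crypt markers numbered 2089 in CON and 458 in SAP, and nuclei classed by enterocyte markers 2134 and 4262. By library, 3 or more enterocyte markers were held by 1965 of 9178, 810 of 6215 and 4167 of 8358 other nuclei in CON. In SAP they were held by 1372 of 3176, 5035 of 5922 and 3125 of 7853, so the groups overlapped. For 3 or more crypt markers the counts were 4117 of 9178, 2101 of 6215 and 2207 of 8358 in CON. In SAP they were 400 of 3176, 413 of 5922 and 1832 of 7853. As a share of these nuclei, every SAP library was below every CON library for the crypt markers. Nuclei classed by neuron markers, of which 39.1% held a Tac1 UMI, numbered 20 and 3, and they held 31 of the 2472 Tac1 UMIs outside the marker-positive set. The part of this makeup in the Tac1 and Sct differences was not tested beyond the shares within marker numbers given above.

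**Figure D5:**
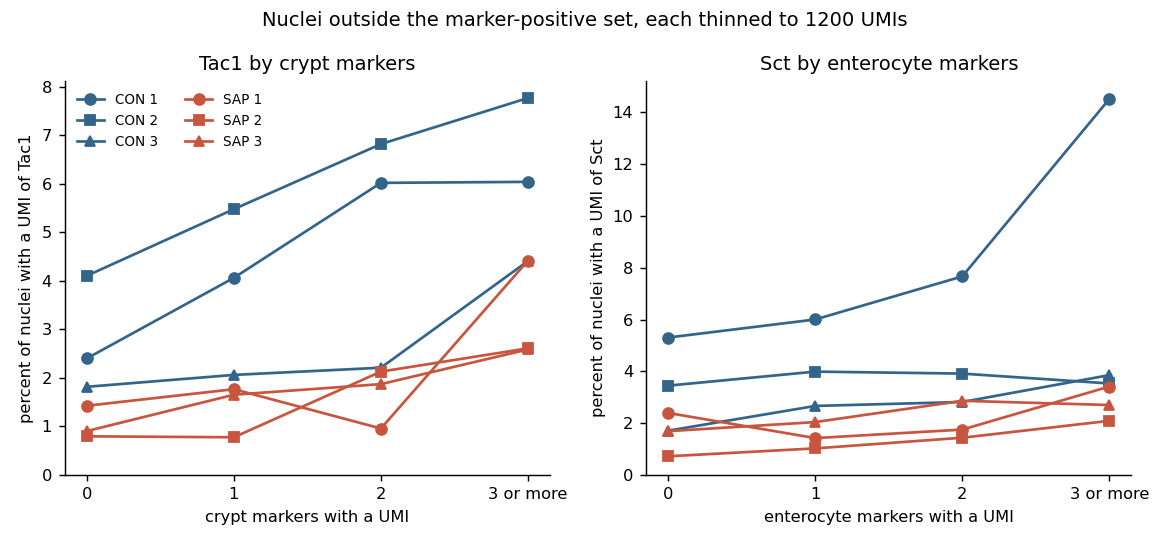
Percent of nuclei outside the marker-positive set with a UMI of Tac1, by the number of crypt markers with a UMI (left), and of Sct, by the number of enterocyte markers (right), with every nucleus thinned to 1200 UMIs. Each line is 1 rat, colored by group, with the marker shape for the replicate. Tac1 ends higher at 3 or more crypt markers than at 0 in all 6 libraries, and Sct reaches 14.5% in CON 1 and 2.08% to 3.85% in the other 5.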

How the data were processed

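Nuclei of 6 ileum libraries were read from the UMI count matrices that the authors deposited, made with dnbc4tools. The lowest barcode held exactly 1000 UMIs in 4 libraries, 545 in CON 2 and 502 in SAP 1. The submitters' processing notes name Seurat 4.3.0 and the build mRatBN7.2. The study's limits (at least 1200 UMIs and 500 genes, at most 5% mitochondrial UMIs) kept 40970 of 90461 barcodes, and no doublet caller was run. Counts were summed per library and tested with edgeR 4.0.16 in R 4.3.3 (filterByExpr, TMM, robust quasi-likelihood fit), with DESeq2 1.42.0 as an alternative. Calls required a Benjamini-Hochberg adjusted p under 0.05 together with a log2 fold change of 0.5 or more in size. The procedure was run on simulated data with the same relative spread between libraries set for every gene. That spread was not matched to the gut hormone genes, so the simulation gives no error rate or power for them. Single values per rat were compared by exact permutation with scipy 1.17.1. Permutation p-values rest on the values of these 6 rats alone. In edgeR and DESeq2 the spread of each gene between rats is estimated with information from the other genes. Very small p-values there do not measure that gene's own spread between rats alone.

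The gut hormone genes, marker lists and pathway lists were chosen with earlier results of these data known. Named were all 10 genes, the 2 genes of lowest p in each list, the 5 top companions and the 3 genes of lowest p in each direction. Replicate numbers come from the labels. Over all nuclei, deviations of same-numbered libraries correlated at 0.554, 0.164 and 0.525, and over marker-positive nuclei at 0.0261, 0.0724 and 0.0406.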

Additional observations from a re-analysis of the deposited data

How the results depend on the processing

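Of 1035 values recomputed, 944 kept their direction and their side of the threshold. With the replicate block, edgeR called 0 genes in marker-positive, other and all nuclei, as without it, so the pairing changed no call. For gut hormone genes in marker-positive nuclei, 1 was called without the filter on low counts. Over all genes there, calls numbered 3 in DESeq2, 30 without the filter, 1 with 2 or more markers, 3 with at most 1% mitochondrial UMIs, and 0 to 2 with a library left out. DESeq2 called 212 genes in other nuclei and 215 in all nuclei, and leaving out a library gave 0 to 1 in each. For the difference of the SAP effect, calls numbered 0 in DESeq2, 2 and 0 with 2 or 4 markers, 0 with markers read at 1200 UMIs, 8 with at most 1% mitochondrial UMIs, 22 without the 5% of nuclei with the most UMIs, 0 without neuron-marked nuclei, and 1 to 43 with a library left out, with 0 to 2 gut hormone genes among them. Marker-positive against other nuclei gave 795 calls with at most 1% mitochondrial UMIs and 597 without neuron-marked nuclei. List genes called numbered 1 (Nmu) in marker-positive nuclei in DESeq2, without the filter and with at most 1% mitochondrial UMIs, 0 to 1 with a library left out, and 1 (Mme) in all nuclei in DESeq2. Counting list genes under these settings was chosen after seeing the data.

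Some values changed sign, and the cause was not tested. With a library left out, log2 fold changes ranged from −0.99 to 0.27 for Tph1 in marker-positive nuclei. In other nuclei they ranged from −1.14 to 0.18 for Gcg, −0.54 to 0.059 for Pyy, −0.56 to 1.14 for Gip and −0.65 to 0.44 for Sst. In all nuclei they ranged from −1.44 to 0.050 for Gcg, −0.40 to 0.33 for Nts, −0.20 to 0.47 for Tph1 and −0.57 to 1.00 for Gip, and the difference of the SAP effect from −0.55 to 0.46 for Sct. Sst in other nuclei was at 0.11 with 2 or more markers. In all nuclei, Nts was at 0.0094 in DESeq2, 0.14 with at most 1% mitochondrial UMIs and 0.023 without the 5% of nuclei with the most UMIs. Tph1 was at −0.0080 with library totals and −0.087 without that 5%, and Sst at 0.12 with at most 1% mitochondrial UMIs. The share of marker-positive nuclei differed by 0.0211 percentage points with 2 or more markers and 0.0531 with at most 1% mitochondrial UMIs. Differences in the share with a UMI, in percentage points, were 6.79 for Gcg and 0.137 for Tac1 with 4 or more markers, and −0.0546 for Sst with 2 or more. For Gip they were 0.135 with 2 or more markers, 0.714 with at most 1% mitochondrial UMIs, 0.812 without the 5% of nuclei with the most UMIs, 0.489 without neuron-marked nuclei and 0.473 at 1200 UMIs. With a library left out they ranged from −6.71 to 5.74 for Gcg, −10.5 to 1.95 for Tac1, −1.27 to 13.04 for Tph1 and −1.07 to 1.11 for Gip. Depth limits SAP 1 most, where 13 marker-positive nuclei allow a share of up to 23.1% at a count of 0.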

Other observations

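The 49491 barcodes that did not pass the limits on UMIs, genes and mitochondrial share held 39616323 UMIs, and the gut hormone genes were read in them as well. Tac1 was at 67.4, 49.1 and 25.3 CPM in CON 1, 2 and 3 and at 17.3, 9.06 and 16.1 CPM in SAP 1, 2 and 3. Sct was at 91.0, 36.4 and 41.8 CPM in CON and at 28.4, 25.0 and 26.7 CPM in SAP. For both genes every SAP library was below every CON library (exact two-sided permutation p = 0.1, the smallest this design allows). The share of all genes that did so in these barcodes was not counted. Nts was at 39.6, 30.3 and 29.7 CPM in CON and at 99.3, 55.4 and 37.3 CPM in SAP, with overlap. CON 2 and SAP 1 list barcodes of fewer than 1000 UMIs and the other 4 libraries do not, so these sums cover different ranges of depth.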
